A study of Populus cathayana with 4 samples.

Results

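The genes described here are the NBS-LRR immune receptor genes of a poplar leaf, taken as the rows of a tag count table whose best protein match is described with the words "nbs-lrr" or "disease resistance" and that hold at least 10 counts over the 4 libraries. The words occurred in 177 of 19100 rows (174 loci), and 74 of these rows reached 10 counts, against 10741 rows of the whole table. The rule used the description and the total count only, and no comparison between libraries. Of the 74 members, 30 were described as CC receptors, 24 as TIR receptors and 4 as BED finger receptors, and for 16 no class was named. Rows just inside the count limit were 4 with 10 counts, and rows just outside it were 10 with 9 counts.

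Leaves came from female and male Populus cathayana, a dioecious poplar, grown from cuttings in a greenhouse, and the 4 groups were females under ambient solar UV-B, females under decreased (here, reduced) solar UV-B, males under ambient UV-B and males under reduced UV-B, each kept so for 100 days. Each group is a single library, made from RNA of the fourth fully expanded leaves of 9 plants pooled in equal parts, and no genotype is given in the labels. The libraries hold 17 bp tags cut beside the NlaIII site of each transcript and were sequenced on separate lanes, so lane and group cannot be told apart. Since a transcript yields a single tag, the levels below, in CPM (counts scaled by the library total), carry no length term and can be set side by side between genes.

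NBS-LRR proteins are receptors inside the plant cell. Their nucleotide binding domain switches the protein on when the leucine-rich repeats, or a partner protein that they guard, meet a molecule delivered by a pathogen, and activation often ends in the death of the infected cell. CC receptors carry a coiled coil at the amino end and TIR receptors carry a Toll/interleukin-1 receptor domain, which in Arabidopsis thaliana makes small signalling molecules read by EDS1 with its partners PAD4 and SAG101. In poplars a further class carries a BED zinc finger. The family is large, lies in tandem clusters, differs in copy between plants of a species, and is held down in many trees by microRNAs whose cut products are turned into secondary small RNAs by RNA-dependent RNA polymerase, Dicer and Argonaute proteins. In Populus trichocarpa, a cluster of these genes has been described beside the sex-linked region of chromosome 19.

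The table lists 624926 to 722533 tags per library, which are 14.4% to 17.2% of the library totals printed in its column headers, and 1 count corresponds to 0.228 to 0.238 CPM. No count of 1 occurs in the table, so a row listed at 0 may have had 0 or 1 tag. As a check of the tissue, the 21 tested rows found by words for Rubisco, light-harvesting and plastocyanin proteins, which mark leaf mesophyll, summed to 6996 CPM in ambient females and 8527 CPM in reduced females, and to 8665 CPM in ambient males and 7600 CPM in reduced males. These words also took in 2 rows that are no such markers, a methylthioribulose-1-phosphate dehydratase (Potri.001G399000.1, 400 counts over the 4 libraries) and a Rubisco methyltransferase (Potri.008G047400.1, 12 counts). The 11 laccase and fasciclin rows, which mark xylem and fibre, summed to 9.48 and 31.2 CPM in ambient and reduced females, and to 36.6 and 54.2 CPM in ambient and reduced males. The 7 epidermal rows summed to 7.40 and 18.7 CPM in ambient and reduced females, and to 11.2 and 23.1 CPM in ambient and reduced males. Of the xylem and fibre rows, 3 were called lower in females than in males under ambient UV-B, and 1 was called lower under ambient than under reduced UV-B in each sex, by the test given next. The part of these markers in the results below was not tested, and in pooled leaves fewer cells of a type and less RNA per cell cannot be told apart.

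With 1 library a group, each row was compared by an exact two-sided binomial test of its counts given the library totals, adjusted over the 10741 tested rows by the Benjamini-Hochberg method. A row was called at an adjusted p below 0.001 with a difference of at least 2-fold. These tests set library against library and their error is that of counting alone: the variation between pools of plants was not measured, and all intervals below are 95% counting intervals. Near-identical copies can share a 17 bp tag, so the assignment of counts between members of this family is uncertain.

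The receptors were expressed at low levels. Only 41.8% of the rows with the words reached 10 counts, against 56.2% of all rows, and 10.2% reached 50 counts, against 27.4% of all rows. Members held 10 to 663 counts, with a median of 26 against 47 over the tested rows. Together the 74 members made up 270 CPM (interval 254 to 286) in ambient females and 265 CPM (250 to 281) in reduced females, and 246 CPM (231 to 261) in ambient males and 253 CPM (238 to 269) in reduced males. The interval of the log2 ratio of these sums took in 0 in each comparison except sex under ambient UV-B. That ratio, ambient over reduced, was 0.02 (interval -0.09 to 0.14) in females and -0.04 (-0.17 to 0.08) in males, and females over males it was 0.13 (0.01 to 0.25) under ambient UV-B and 0.07 (-0.05 to 0.19) under reduced UV-B.

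The gene ontology terms of the table, which the rule did not use, matched the family for most members. Both programmed cell death and adenyl ribonucleotide binding were attached to 61 of the 74 members. Receptor activity, membrane part and signaling were attached to 18 members, all of them TIR receptors. Of the 13 members without both terms, 5 had no function term, and 2 (Potri.012G074700.1 and Potri.015G069600.1, each described simply as a disease resistance protein) carried carboxylesterase activity, which is an enzyme's term and not a receptor's. The most abundant member, Potri.001G134600.1, described as an NBS-NBS-LRR protein, carried protein binding, cell cycle process and cellular response to stress. These annotations go against the NBS-LRR label for the carboxylesterase rows and give it no support for Potri.001G134600.1, and results that rest on these rows are marked below. With the 61 members that carry both terms, the log2 ratio of the sums took in 0 in other comparisons than with all 74: it was -0.02 (interval -0.16 to 0.12) for UV-B in females, 0.16 (0.01 to 0.31) for UV-B in males, 0.11 (-0.03 to 0.25) for sex under ambient UV-B and 0.29 (0.14 to 0.44) for sex under reduced UV-B.

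Potri.001G134600.1 had 26.1 CPM in ambient females, 38.2 CPM in reduced females, 31.4 CPM in ambient males and 58.4 CPM in reduced males. Next came Potri.006G014400.1, an NBS-LRR protein with no class named, with 53.6, 44.2, 25.9 and 22.7 CPM in the same order of libraries. Potri.012G074700.1 followed with 31.4, 14.6, 11.4 and 17.5 CPM. All 3 stood above 10 CPM in every library, while the median over members of the mean level was 1.51 CPM.

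The named classes had lower levels at their head than these. The TIR receptor Potri.014G064800.3 had 9.71 CPM in ambient females, 14.3 CPM in reduced females, 10.9 CPM in ambient males and 8.64 CPM in reduced males. The CC receptor Potri.001G313300.1 had 8.32, 13.4, 8.56 and 9.11 CPM in the same order. The BED finger receptor Potri.T028700.1 had 3.93, 1.82, 4.75 and 3.04 CPM. None of these 3 differed between libraries past the test in any comparison. The same held for the class-unnamed Potri.014G035700.1 (9.94, 8.20, 19.5 and 11.9 CPM), the CC receptor Potri.005G119800.1 (8.79, 4.55, 6.42 and 5.84 CPM), and 2 TIR receptors, Potri.T073800.1 (7.63, 5.69, 4.04 and 5.84 CPM) and Potri.019G069600.1 (2.54, 1.82, 8.56 and 3.27 CPM). The BED finger receptor Potri.001G406000.1 stayed between 1.66 and 2.54 CPM.

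**Figure D1:**
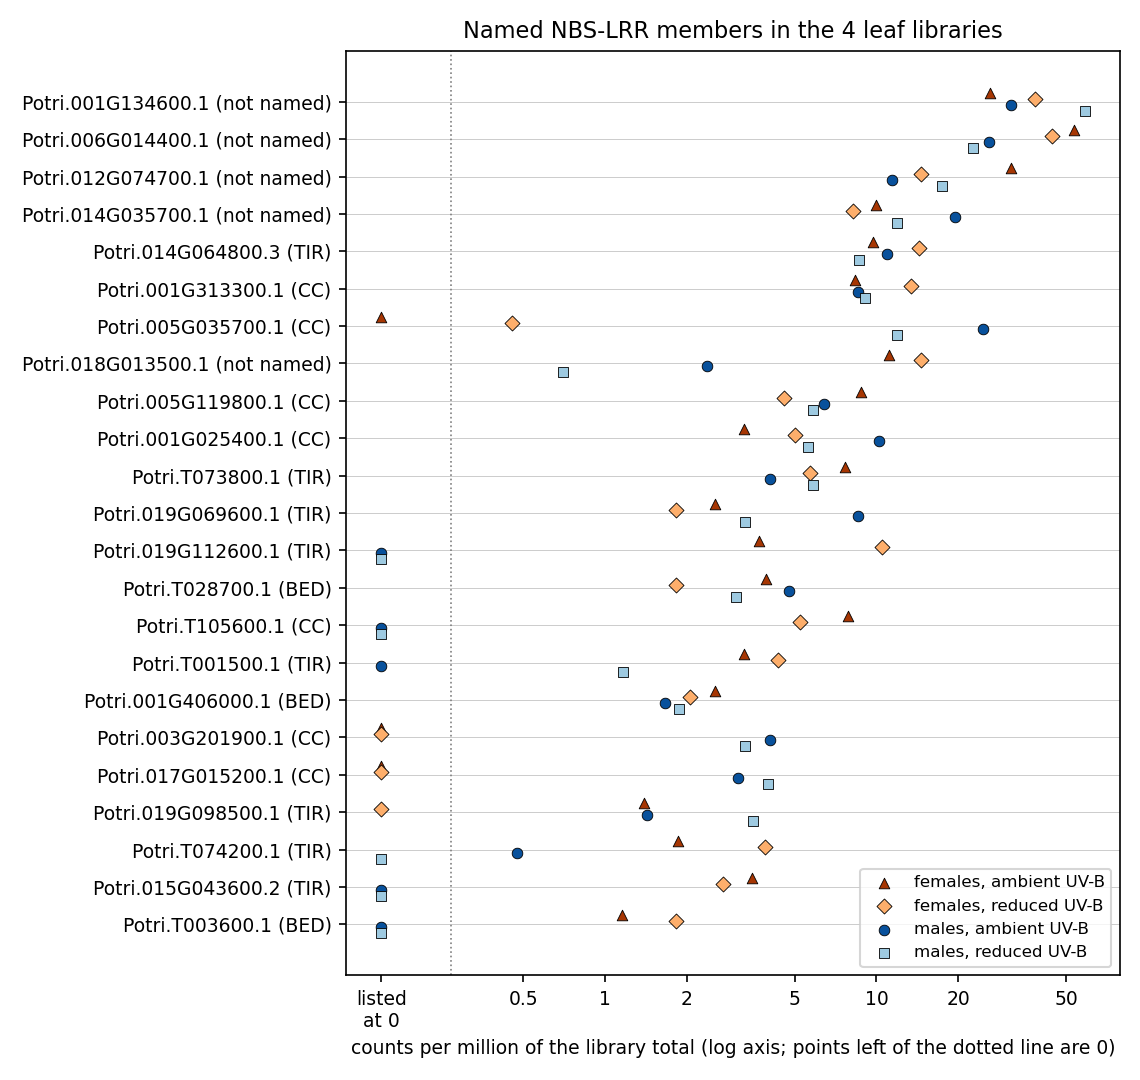
Level of 23 members in the 4 leaf libraries, in CPM on a log axis, with 1 point per library (triangles, ambient females; diamonds, reduced females; circles, ambient males; squares, reduced males) and values of 0 left of the dotted line. Potri.005G035700.1, Potri.003G201900.1 and Potri.017G015200.1 have both female points at or near 0, and Potri.T105600.1, Potri.019G112600.1, Potri.015G043600.2 and Potri.T003600.1 have both male points at 0.

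Sex was the comparison in which most members were called. The question is whether females and males differ at the same UV-B level. Under ambient UV-B, 7 members were called higher and 4 lower in females than in males, where 3.66% of all tested rows were called higher and 7.69% lower. Under reduced UV-B, 4 members were called higher and 4 lower in females, where 4.66% of all tested rows were called higher and 5.90% lower. In either direction together, 14.9% of members were called under ambient UV-B against 11.3% of tested rows, and 10.8% under reduced UV-B against 10.6%. Without a split by depth, the share of members called was thus near the background under reduced UV-B. Members have fewer counts than tested rows, however, so shares at like depth are given next. Among rows with 10 to 49 counts, 7.14% of members were called at each UV-B level. Of the tested rows of that depth, 3.38% were called under ambient and 2.71% under reduced UV-B. Among rows with at least 50 counts, 7 of the 18 members (38.9%) were called under ambient UV-B against 19.7% of tested rows, and 22.2% under reduced UV-B against 18.8%. The median log2 ratio, females over males with 0.5 added to each count, was -0.04 over members and -0.11 over tested rows under ambient UV-B, and -0.23 and -0.04 under reduced UV-B. With 3 added, the members' medians were -0.04 and -0.18.

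The sums of the classes stood in opposite order in the sexes. CC receptors summed to 56.6 CPM (interval 49.8 to 64.2) in ambient females against 94.4 CPM (85.3 to 104) in ambient males, and to 59.9 CPM (52.9 to 67.6) in reduced females against 78.0 CPM (69.9 to 86.8) in reduced males. The log2 ratios, females over males, were -0.74 (interval -0.97 to -0.50) and -0.38 (-0.62 to -0.14). TIR receptors summed to 54.6 CPM (47.8 to 62.0) in ambient females against 38.7 CPM (33.0 to 45.2) in ambient males, and to 69.9 CPM (62.3 to 78.2) in reduced females against 41.3 CPM (35.5 to 47.9) in reduced males. Their log2 ratios were 0.49 (0.20 to 0.79) and 0.76 (0.49 to 1.03). The CC difference rested largely on a single gene: without Potri.005G035700.1, chosen after its values were seen, the ratios were -0.30 (-0.55 to -0.05) and -0.15 (-0.40 to 0.09). For TIR receptors, without Potri.019G112600.1, likewise chosen, they were 0.39 (0.09 to 0.69) and 0.52 (0.24 to 0.81). Over all rows with the words, whatever their count, the 67 CC rows gave -0.67 (-0.90 to -0.45) and -0.43 (-0.66 to -0.21), and the 56 TIR rows gave 0.46 (0.19 to 0.74) and 0.61 (0.36 to 0.86). With TMM factors in place of the header totals the CC members gave -0.55 and -0.40, and the TIR members 0.68 and 0.74. With TMM factors and without the same single genes, the CC members gave only -0.11 and -0.17, and the TIR members 0.58 and 0.51. A summed level has no test with 1 library a group, and the classes were not tested against each other.

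The 4 BED finger receptors summed to 8.32 CPM in ambient females against 6.42 CPM in ambient males, and to 6.60 CPM in reduced females against 6.07 CPM in reduced males, with overlapping intervals. Members of unnamed class summed to 150 CPM (interval 139 to 162) in ambient females against 106 CPM (96.8 to 117) in ambient males, and to 129 CPM (118 to 140) in reduced females against 128 CPM (117 to 139) in reduced males. The ambient sums include the carboxylesterase-annotated Potri.012G074700.1, with 136 counts in females against 48 in males. They also include Potri.006G014400.1, with 232 counts in ambient females against 109 in ambient males, and 194 against 97 under reduced UV-B. Without Potri.001G134600.1 the sums were 124 CPM in ambient females against 75.1 CPM in ambient males (log2 ratio 0.72, interval 0.52 to 0.93), and 90.4 CPM in reduced females against 69.4 CPM in reduced males (0.38, 0.16 to 0.60). Potri.012G074700.1 and Potri.006G014400.1 remain in these sums. How far the class difference rests on them was not tested.

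**Figure D2:**
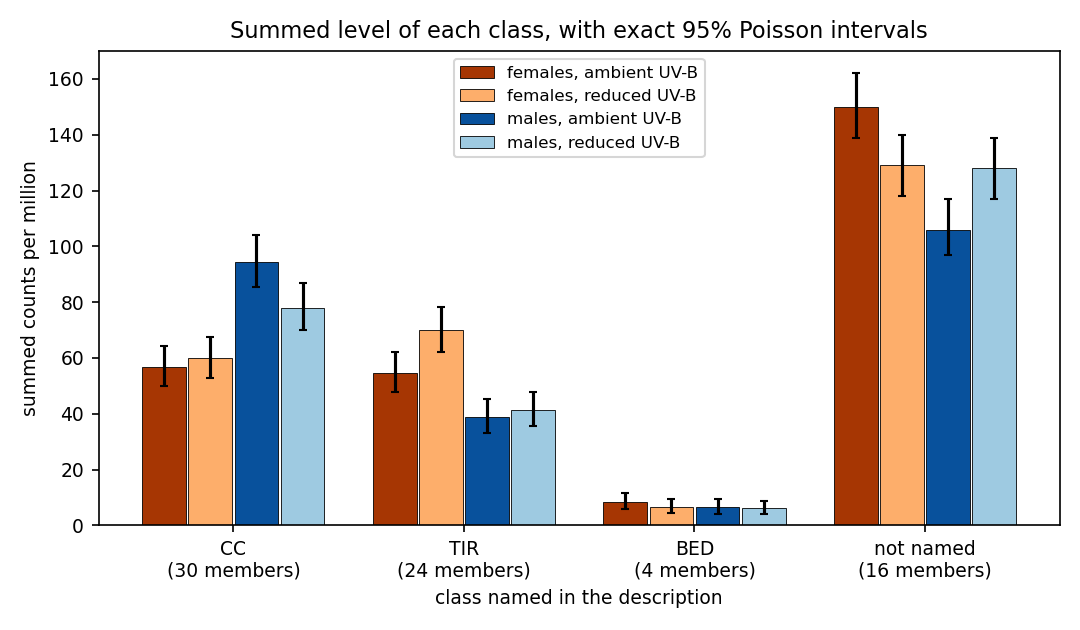
Summed level of the members of each class, in CPM, with a bar per library and exact 95% Poisson intervals that cover counting error only. CC receptors stand at 56.6 and 59.9 CPM in the female libraries against 94.4 and 78.0 CPM in the male ones, and TIR receptors at 54.6 and 69.9 CPM in females against 38.7 and 41.3 CPM in males.

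Among CC receptors, 4 were called lower in females under ambient UV-B and 3 of these also under reduced UV-B. Potri.005G035700.1 had 0 counts in ambient females against 104 in ambient males, and 2 counts in reduced females against 51 in reduced males. It was at or near 0 in both female libraries and was the most abundant CC receptor of each male library. With the 0 set at 3 counts, the level in ambient females was 35.6-fold lower (adjusted p = 8.28e-31, exact test), and the interval of the log2 ratio ended at -4.83. The log2 ratio under reduced UV-B was -4.71 (interval -7.79 to -2.78, adjusted p = 2.64e-12, exact test).

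Potri.003G201900.1 was listed at 0 in ambient and reduced females, against 17 counts in ambient and 14 in reduced males. The call was made at both UV-B levels, with a level at least 5.83-fold lower in females under ambient UV-B (adjusted p = 5.86e-05, exact test) and at least 4.79-fold lower under reduced UV-B (adjusted p = 4.23e-04, exact test). Potri.017G015200.1 had the same form, with 0 counts in each female library against 13 in ambient and 17 in reduced males. Its level was at least 4.45-fold lower in females under ambient UV-B (adjusted p = 7.49e-04, exact test) and at least 5.81-fold lower under reduced UV-B (adjusted p = 6.13e-05, exact test). The ambient call of this gene was lost with TMM factors and without the count filter.

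Potri.001G025400.1 was present in every library, with 14 counts in ambient females against 43 in ambient males, and 22 counts in reduced females against 24 in reduced males. Its log2 ratio was -1.66 (interval -2.64 to -0.76, adjusted p = 6.55e-04, exact test) under ambient UV-B, a call also lost under both alternatives, and -0.16 (-1.07 to 0.73) under reduced UV-B. A single CC receptor was called in the other direction. Potri.T105600.1, on a scaffold not placed on a chromosome, had 34 counts in ambient and 23 in reduced females and was listed at 0 in both male libraries, at least 11.0-fold and 7.47-fold higher in females (adjusted p = 2.59e-09 and 3.23e-06, exact test).

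TIR receptors were called mostly in the other direction, higher in females. Potri.019G112600.1, on chromosome 19 by its identifier, had 16 counts in ambient and 46 in reduced females and was listed at 0 in both male libraries. It was at least 5.19-fold higher in females under ambient UV-B (adjusted p = 2.58e-04, exact test) and at least 14.9-fold higher under reduced UV-B (adjusted p = 9.43e-13, exact test). Potri.015G043600.2 had 15 and 12 counts in ambient and reduced females and 0 in both male libraries, and was called under ambient UV-B only (at least 4.86-fold, adjusted p = 4.79e-04, exact test), with an adjusted p of 0.00309 by the exact test under reduced UV-B.

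Potri.T001500.1 had 14 counts in ambient females against 0 in ambient males, and 19 counts in reduced females against 5 in reduced males. It was called under ambient UV-B (at least 4.54-fold higher, adjusted p = 8.89e-04, exact test), a call lost without the count filter, and its log2 ratio under reduced UV-B was 1.89 (interval 0.42 to 3.67). Potri.T074200.1, described as a TIR-NBS-LRR-TIR protein and without both ontology terms, had 17 counts in reduced females against 0 in reduced males, and 8 in ambient females against 2 in ambient males. It was called under reduced UV-B (at least 5.52-fold higher, adjusted p = 1.43e-04, exact test).

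Against these stood the TIR receptor Potri.019G098500.1, with 0 counts in reduced females against 15 in reduced males, but 6 counts in both ambient females and ambient males. It was at least 5.13-fold lower in females under reduced UV-B (adjusted p = 2.23e-04, exact test). Another entry of this locus, Potri.019G098500.2, is described as a predicted protein and is no member. That entry had 4 counts in reduced females against 15 in reduced males, and 21 in ambient females against 12 in ambient males, and was not called. All 4 chromosome 19 members were TIR receptors, and they took no common direction: Potri.019G112600.1 was higher and Potri.019G098500.1 lower in females under reduced UV-B, while Potri.019G069600.1 had 11 counts in ambient females against 36 in ambient males and Potri.019G052000.1 had 10 against 2, neither of them called.

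Members of unnamed class were called higher in females where they were called. Potri.018G013500.1 had 48 counts in ambient females against 10 in ambient males, and 64 counts in reduced females against 3 in reduced males, log2 ratios of 2.22 (interval 1.22 to 3.37, adjusted p = 6.11e-06, exact test) and 4.38 (2.77 to 6.69, adjusted p = 2.91e-14, exact test). Potri.006G014400.1 had 232 counts in ambient females against 109 in ambient males, and 194 counts in reduced females against 97 in reduced males. Its log2 ratio of 1.05 (0.72 to 1.39, adjusted p = 2.23e-09, exact test) was called under ambient UV-B, and that of 0.96 (0.60 to 1.33, adjusted p = 5.83e-07, exact test) was just under the 2-fold limit under reduced UV-B. The carboxylesterase-annotated Potri.012G074700.1 had 136 counts in ambient females against 48 in ambient males (log2 ratio 1.46, interval 0.98 to 1.97, adjusted p = 3.42e-09, exact test), and 64 counts against 75 under reduced UV-B, which was not called. Without this row and the others lacking both ontology terms, 6 members were higher and 4 lower in females under ambient UV-B, and 3 higher and 4 lower under reduced UV-B.

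The calls recurred across UV-B levels, which share no library. The plants were grown from cuttings and no genotype is given, so the pools of a sex may share parent plants. A difference of sex cannot be told apart from one of parent plants. Of the members called under reduced UV-B, 6 of 8 (75.0%) were called in the same direction under ambient UV-B, where they were 6 of 11 (54.5%). Over all tested rows 529 calls recurred, 46.6% of those under reduced and 43.4% of those under ambient UV-B. Across the 74 members the log2 ratios of the 2 sex comparisons had Pearson's r of 0.72 and Spearman's rho of 0.66, against r of 0.45 over the tested rows. This correlation is across genes, which are not independent replicates, and is given as a description.

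**Figure D3:**
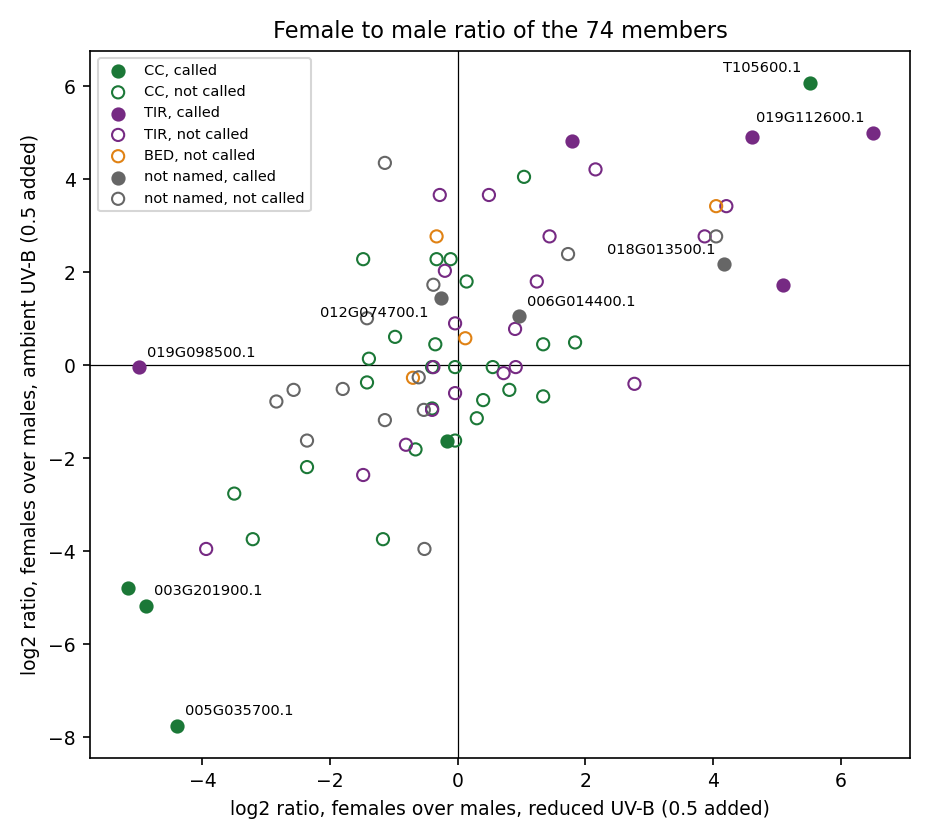
Log2 ratio of females over males for each of the 74 members, under reduced UV-B on the horizontal axis and under ambient UV-B on the vertical axis, with 0.5 added to each count. Filled points were called in at least 1 of the 2 comparisons, colours give the class, and labels drop the prefix Potri. The called CC points lie mostly at the lower left and the called TIR points mostly at the upper right, with Potri.T105600.1 and Potri.019G098500.1 as exceptions.

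Several receptors were listed at 0 in both libraries of a sex. There were 7 such members in males (9.46%, against 2.33% of tested rows) and 4 in females (5.41%, against 2.29%). Such a row can reach the limit of 10 counts only through the other sex, for members and tested rows alike. The form of these rows thus follows in part from the limit, and they are given as a description. Since members have few counts, the nearer background is rows with 10 to 49 counts, where 8.93% of members and 4.26% of tested rows were at 0 in both male libraries, and 7.14% and 4.15% in both female ones. Those at 0 in males were 4 TIR receptors (Potri.019G112600.1, Potri.015G043600.2, Potri.014G063500.1 and Potri.013G037300.1), the CC receptor Potri.T105600.1, the BED finger receptor Potri.T003600.1 and the class-unnamed Potri.T003900.1. Those at 0 in females were 3 CC receptors (Potri.003G201900.1, Potri.017G015200.1 and Potri.005G042000.1) and the TIR receptor Potri.007G143200.1. The last of these had 0 counts in each female library against 7 in each male library. A count of 0 allows up to 3 counts, or 0.683 to 0.713 CPM, so none of these can be called absent from its counts. A transcript is seen only through its single 17 bp tag. Whether a 0 lies in the level of the transcript or in its tag was not tested.

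By library, 10 members (13.5%) were at 0 in ambient females and 7 (9.46%) in reduced females, against 19 (25.7%) in ambient males and 9 (12.2%) in reduced males. Over all tested rows the shares were 8.17%, 7.35%, 9.02% and 6.17% in the same order. Among rows with 10 to 49 counts, the shares of members and of tested rows were 16.1% and 15.2% in ambient females, 12.5% and 13.6% in reduced females, 30.4% and 16.9% in ambient males, and 12.5% and 11.6% in reduced males, so that at this depth only the ambient male library had a share of members far from that of tested rows. Of the 24 TIR receptors, 3 were at 0 in ambient females, 2 in reduced females, 10 in ambient males and 6 in reduced males. Of the 30 CC receptors, 6, 4, 5 and 1 were. The ambient male library thus had the most members at 0, and 10 members (13.5%, against 5.39% of tested rows) were at 0 there and in no other library. Members above 0 in all 4 libraries made up 56.8%, against 75.9% of tested rows.

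**Figure D4:**
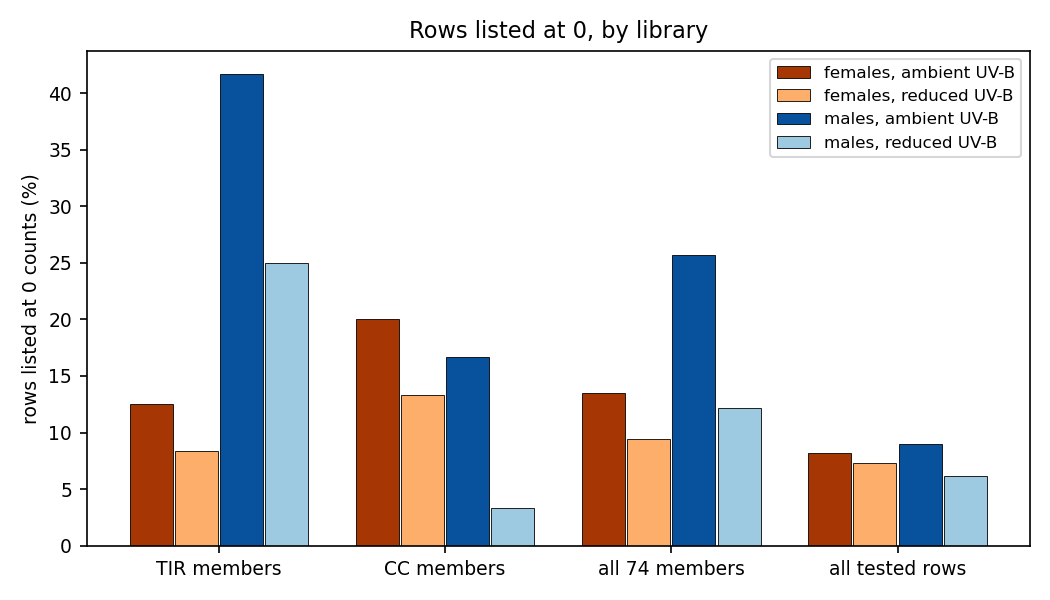
Share of rows listed at 0 counts in each library, in percent, for the 24 TIR receptors, the 30 CC receptors, all 74 members and all 10741 tested rows, with a bar per library. Over all members the share is 25.7% in ambient males and 9.46% to 13.5% in the others, and over all tested rows it lies between 6.17% and 9.02%.

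Few members were called for UV-B. In females, 1 member was called higher and 0 lower under ambient than under reduced UV-B, where 1.46% of tested rows were called higher and 1.52% lower. By the same exact test, 14 members (18.9%, against 23.4% of tested rows) had an unadjusted p below 0.05. At like depth these shares were 38.9% of members and 32.4% of tested rows with at least 50 counts, and 12.5% and 14.9% with 10 to 49 counts. The member called was Potri.012G074700.1, with 136 counts in ambient against 64 in reduced females, a log2 ratio of 1.11 (interval 0.67 to 1.56, adjusted p = 6.62e-06, exact test). It is the row annotated as a carboxylesterase, so no member carrying both ontology terms was called in females. Next to it, the TIR receptor Potri.019G112600.1 had 16 counts in ambient against 46 in reduced females, a log2 ratio of -1.50 (-2.42 to -0.65, adjusted p = 0.00303, exact test) that did not pass the threshold. The median log2 ratio was -0.18 over members (-0.13 with 3 added) and 0.02 over tested rows, and 36 members lay above 0 and 38 below. TIR receptors summed to 54.6 CPM in ambient against 69.9 CPM in reduced females, a log2 ratio of -0.36 (interval -0.61 to -0.11), or -0.22 (-0.49 to 0.04) without Potri.019G112600.1.

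In males, 1 member was called higher and 0 lower under ambient than under reduced UV-B, where 2.46% of tested rows were called higher and 1.46% lower, and 13 members (17.6%, against 27.2% of tested rows) had an unadjusted p below 0.05 by the exact test. At like depth the latter shares were 38.9% of members and 40.1% of tested rows with at least 50 counts, and 10.7% and 14.9% with 10 to 49 counts. The CC receptor Potri.005G035700.1, at 0 and 2 counts in females, had 104 counts in ambient against 51 in reduced males, a log2 ratio of 1.05 (interval 0.56 to 1.57, adjusted p = 2.08e-04, exact test). Potri.001G134600.1, the most abundant member and a row without both ontology terms, had 132 counts in ambient against 250 in reduced males, a log2 ratio of -0.90 (-1.21 to -0.59, adjusted p = 1.35e-07, exact test), which was just short of 2-fold. In females it had 113 counts in ambient against 168 in reduced UV-B, a log2 ratio of -0.55 (-0.91 to -0.20, adjusted p = 0.0202, exact test). The median log2 ratio in males was 0.03 over members (also 0.03 with 3 added) and 0.11 over tested rows.

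These male calls depended on scaling. TMM factors move every male UV-B ratio by -0.21, and with them the call of Potri.005G035700.1 was lost and 2 members were called lower, Potri.001G134600.1 at -1.11 (adjusted p = 1.72e-11, exact test) and the CC receptor Potri.014G010700.1 at -3.43 (adjusted p = 7.18e-04, exact test). Potri.014G010700.1, named here after its values were seen, had 2 counts in ambient against 19 in reduced males, and 12 counts in ambient against 18 in reduced females. Over all tested rows the same change of scaling took the calls in males to 117 higher and 232 lower, against 264 and 157 with header totals. CC receptors summed to 94.4 CPM in ambient against 78.0 CPM in reduced males, a log2 ratio of 0.27 (interval 0.06 to 0.49) with header totals, 0.06 with TMM factors, and 0.08 (-0.17 to 0.32) without Potri.005G035700.1.

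The UV-B ratios of the sexes, which share no library, had Pearson's r of 0.22 and Spearman's rho of 0.18 across the 74 members, against r of 0.06 over tested rows, and the same sign in 40 of 74 members (54.1%, against 53.4% of tested rows). Among rows with at least 50 counts, r was 0.01 over the 18 members and 0.17 over tested rows. No member was called for UV-B in both sexes, against 43 of the 10741 tested rows. With only 1 member called in each sex, this count cannot set members apart from tested rows.

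**Figure D5:**
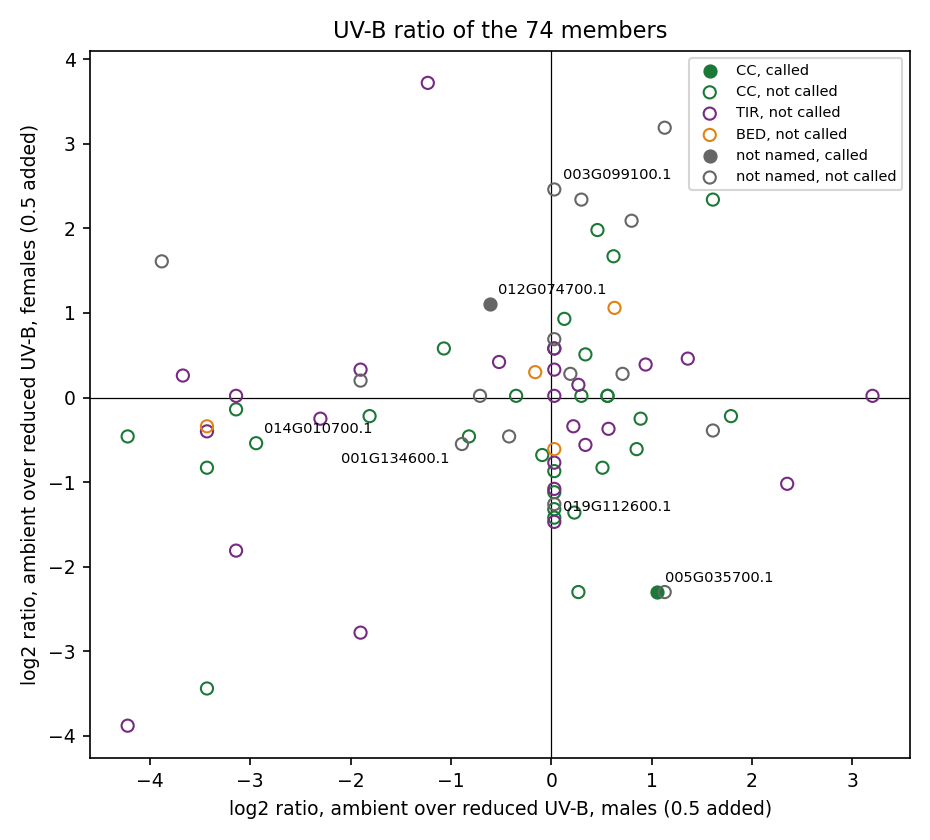
Log2 ratio of ambient over reduced UV-B for each of the 74 members, in males on the horizontal axis and in females on the vertical axis, with 0.5 added to each count. Filled points were called in at least 1 sex, colours give the class, and labels drop the prefix Potri. Only Potri.005G035700.1 and Potri.012G074700.1 are filled, and the points spread over all 4 quadrants.

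Whether the sexes differ in their UV-B ratio was tested from all 4 counts of a row, with an exact conditional test adjusted over the same rows. The call was made for 1 member with a higher ratio in females and 0 with a lower one, where 1.03% of tested rows were called higher and 2.02% lower, and 8 members (10.8%, against 22.1% of tested rows) had an unadjusted p below 0.05. That member was again Potri.012G074700.1. Its UV-B log2 ratio was 1.11 in females and -0.62 (interval -1.17 to -0.08) in males, a difference of 1.73 (1.01 to 2.44, adjusted p = 2.05e-05, exact test). With TMM factors the tested rows were called 157 higher and 126 lower for this difference, against 111 and 217 with header totals, and for sex under ambient UV-B 551 higher and 624 lower, against 393 and 826. The members' median of this difference was 0.24 (0.07 with 3 added), against -0.17 over tested rows.

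By their identifiers, 59 members lie on numbered chromosomes and 15 on scaffolds not placed on one. The scaffolds carried 53 of the 177 rows with the words, and members made up 7.08% of the tested scaffold rows. Chromosome 1 held 11 members, chromosomes 14 and 17 held 6 each, and chromosomes 2, 9, 10 and 16 held none. Identifiers within 500 units of each other, taken as neighbours, gave 4 pairs of members. A pair on chromosome 7 took opposite patterns: the TIR receptor Potri.007G142900.1 had 6 counts in ambient and 6 in reduced females, against 0 and 4 in ambient and reduced males, while its neighbour Potri.007G143200.1 had 0 and 0 against 7 and 7. On chromosome 3, Potri.003G099000.1 had 10 and 3 counts in ambient and reduced females, against 0 and 7 in ambient and reduced males, and its neighbour Potri.003G099100.1 had 13 and 2 against 6 and 6. None of these 4 genes was called in any comparison.

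The table also held 22 tested rows with both ontology terms but without the words, 16 of them described only as predicted proteins. They summed to 70.3 CPM in ambient and 56.5 CPM in reduced females, against 86.8 CPM in ambient and 57.2 CPM in reduced males. None of them was called for UV-B in either sex, where 2.98% of tested rows were called in females and 3.92% in males. Under ambient UV-B, 0 were called higher and 2 lower in females, where 3.66% and 7.69% of tested rows were. Under reduced UV-B, 2 were called higher and 1 lower, where 4.66% and 5.90% of tested rows were. With 22 rows, these counts are too few to be set apart from the shares of tested rows.

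Genes that act with the receptors were taken from word lists. Downstream of TIR receptors, the EDS1 family had 1 tested row, PAD4 (Potri.005G068700.1), which was called lower in females at both UV-B levels, whereas the TIR sum was higher there. PAD4 had 2 counts in ambient females against 20 in ambient males (log2 ratio -3.36, interval -6.50 to -1.32, adjusted p = 4.23e-04, exact test), and 0 counts in reduced females against 16 in reduced males (at least 5.47-fold lower, adjusted p = 1.17e-04, exact test). In the salicylate list, 2 tested rows described as NPR1-like regulators, which turn on defence genes, were called in no comparison. Potri.002G056500.1, the more abundant of them, had 124 counts in ambient and 92 in reduced females, against 97 in ambient and 80 in reduced males. Of 9 WRKY transcription factors, a family that controls defence genes, 1 was called: WRKY18 (Potri.003G169100.1) had 16 counts in reduced females against 67 in reduced males, a log2 ratio of -2.10 (-2.99 to -1.30, adjusted p = 1.11e-07, exact test), and 24 against 30 under ambient UV-B.

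Of the 3 tested pathogenesis-related rows, the secreted proteins made late in a defence response, 2 were lower in females at both UV-B levels. The thaumatin-like Potri.001G102400.1 had 147 counts in ambient females against 869 in ambient males (log2 ratio -2.60, interval -2.87 to -2.35), and 92 counts in reduced females against 716 in reduced males (interval of the log2 ratio -3.33 to -2.68). The chitinase Potri.006G188400.1, an enzyme that cuts fungal cell walls, had 11 counts in ambient and 11 in reduced females, against 52 in ambient and 55 in reduced males, log2 ratios of -2.28 (-3.37 to -1.32) and -2.36 (-3.44 to -1.41). Adjusted p-values of the exact test for these 4 differences were 2.4e-127, 1.02e-121, 1.07e-06 and 2.56e-07.

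Among 9 surface receptors, which sense molecules outside the cell, 1 was called. The receptor-like kinase Potri.007G126200.1 had 92 counts in ambient females against 12 in ambient males, and 67 counts in reduced females against 19 in reduced males, log2 ratios of 2.90 (interval 2.03 to 3.90, adjusted p = 1.64e-14, exact test) and 1.78 (1.03 to 2.60, adjusted p = 3.03e-06, exact test). The most abundant row of this list, a kinase described like BAK1, the co-receptor of many such receptors in Arabidopsis thaliana (Potri.003G023200.1), had 227 and 202 counts in ambient and reduced females, against 204 and 179 in ambient and reduced males, and was not called.

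The 4 calcium rows and 2 oxidative burst rows were called in no comparison. A calmodulin-related protein (Potri.006G026700.1), the most abundant calcium row, had 255 counts in ambient against 162 in reduced females, and 239 counts in ambient against 168 in reduced males.

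The small RNA list took in rows described as Dicer, Argonaute or RNA-dependent RNA polymerase proteins. It had 11 tested rows, of which 3 were called, all of them RNA-dependent RNA polymerases. Whether any of these rows acts on NBS-LRR transcripts was not tested. Potri.006G253500.1 had 38 counts in ambient against 3 in reduced females, and 7 counts in ambient against 85 in reduced males, so its order by UV-B was opposite in the sexes. The log2 ratios were 3.69 (interval 2.03 to 6.03, adjusted p = 2.09e-07, exact test) in females and -3.58 (-4.93 to -2.47, adjusted p = 3.81e-16, exact test) in males, and the difference between the sexes was 7.26 (5.07 to 9.79, adjusted p = 2.83e-20, exact test). Potri.008G135800.1 had 2 counts in ambient females against 26 in ambient males (log2 ratio -3.74, adjusted p = 1.38e-05, exact test) and 9 against 20 under reduced UV-B. Potri.018G028100.1 had 0 counts in ambient females against 17 in ambient males (at least 5.83-fold lower, adjusted p = 5.86e-05, exact test) and 3 against 16 under reduced UV-B. The most abundant row of the list, a Dicer homologue (Potri.002G181400.1), had 56 and 46 counts in ambient and reduced females, against 95 and 66 in ambient and reduced males, and was not called.

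In the UV-B signalling list, COP1, the ubiquitin ligase that acts with the UV-B receptor in Arabidopsis thaliana, had 2 tested rows. Potri.012G140200.1 had 18 counts in ambient and 23 in reduced females and was listed at 0 in both male libraries (at least 5.84-fold higher in females under ambient UV-B, adjusted p = 7.42e-05, and 7.47-fold under reduced UV-B, adjusted p = 3.23e-06, exact test). The other row, Potri.015G143200.1, had 7 and 10 counts in ambient and reduced females, against 11 and 5 in ambient and reduced males, and was not called. No tested row of this list was called for UV-B.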

How the data were processed

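Tag counts per gene were deposited for 4 libraries, with each library total in the column header, per the file headers. Tags of 17 bp were extracted and counted with the Illumina pipeline, per the labels' protocols. The deposited columns headed TPM hold CPM, counts divided by the header total: all values match those recomputed from the counts within 0.005. The genome build and the rule that assigned tags to genes were not given in the sources used here. The labels' protocols mention 3 biological replicates of the extraction, but there is 1 library per group, so the edgeR quasi-likelihood test has no residual degrees of freedom. Rows with at least 10 counts were compared with exact conditional tests (scipy 1.17.1), which were checked on data simulated with counting error alone. That check holds no variation between pools, so it does not show how the tests behave with it. Log2 ratios and their intervals came from the counts, with 0.5 added to each count for medians. A fold against 0 used a floor of 3 counts in place of the 0, with the other count taken as observed. Intervals cover counting error only. Tags amplified by PCR without molecular identifiers are not independent molecules, so the intervals may be too narrow even for counting error. Classes were read from words in the description.

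The members, the word lists, the test and the thresholds were chosen with earlier results of these data known. Named members were those called, the 10 most abundant, the 3 most abundant of each class, and for each comparison the 3 highest and lowest ratios among members with at least 50 counts in the higher library. Of each list, the most abundant row and up to 2 called rows per direction are named. Lists for receptor partners, chaperones, MAP kinases and phloem matched 0 rows. Alternatives were TMM factors (edgeR 4.0.16), size factors (DESeq2 1.42.0), no count filter, an adjusted p below 0.05 with no fold limit, a coefficient of variation of 0.3 assumed between pools, 3 added to each count, the words "nbs-lrr" only, and leaving out the most abundant member. Members with both ontology terms, and class sums without a single gene, were alternatives added after seeing the data.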

Additional observations from a re-analysis of the deposited data

Results flagged for a closer look

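The UV-B log2 ratio of Potri.012G074700.1 was 1.11 in females and -0.62 in males, and the exact test of the difference, 1.73 (interval 1.01 to 2.44), passed the threshold (adjusted p = 2.05e-05). The row carries a carboxylesterase term and not the terms of the receptor family.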

How the results depend on the processing

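No paired analysis was possible because each group is 1 library and the groups share only the replicate number 1. The count of members called changed with the threshold and the error assumed. At an adjusted p below 0.05 with no fold limit, the exact test called 6 members for UV-B in females, 7 in males, 24 for sex under ambient UV-B, 20 under reduced UV-B and 3 for the difference between the sexes in the UV-B ratio, where 12.1%, 16.2%, 30.0%, 27.8% and 11.5% of tested rows were called. With a coefficient of variation of 0.3 assumed between pools, the counts were 0, 0, 2, 3 and 0 in that order, against 0.13%, 0.0466%, 1.15%, 0.791% and 0.0372% of tested rows, and 5 of the 22 single calls were kept: Potri.005G035700.1 at both UV-B levels, Potri.T105600.1 under ambient UV-B, and Potri.018G013500.1 and Potri.019G112600.1 under reduced UV-B. With only "nbs-lrr" as the words, or with both ontology terms required, 0 members were called for UV-B in females and 0 for the difference. TMM factors called 2 members in males (0 higher, 2 lower), and kept 19 of the 22 single calls, as did size factors and no filter on counts. The members' median UV-B ratio in males was -0.19 with TMM factors. The ratio of summed counts, with TMM factors, was -0.25 for UV-B in males, 0.32 for sex under ambient UV-B and 0.27 for the difference. Without the most abundant member it was 0.14 for UV-B in males and 0.22 for sex under reduced UV-B. With both ontology terms it was 0.16 for UV-B in males, 0.29 for sex under reduced UV-B and -0.18 for the difference, and the first 2 intervals no longer took in 0. The cause of these changes was not tested beyond the shift of each scaling. Of the 56 members with fewer than 50 counts, 0 were called for UV-B in either sex, against 0.455% of tested rows of like depth in females and 0.818% in males, and 4 (7.14%) for sex at each UV-B level, against 3.38% under ambient and 2.71% under reduced UV-B.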
